A study of Rattus norvegicus with 12 samples.

Results

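The mitochondrial ribosomal protein genes were followed in rat Schwann cells grown alone or together with macrophages. Members were chosen by symbol: Mrpl or Mrps followed by a digit, with a count in all 12 libraries. Of 76 rows of the gene table that match the pattern, 70 had such counts, among 30957 genes in all, and all 70 passed the filter on low counts that left 12360 genes for testing. By symbol, 41 are large subunit genes (Mrpl) and 29 are small subunit genes (Mrps). The symbol rule and the filter used no difference between groups, but the members were chosen with earlier results of these data known.

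The study sequenced mRNA of 4 groups with 3 libraries each, all of rat Schwann cells. The first group, called alone here, was untreated cells titled Rsc96 in the labels (HSC96 in their descriptions); RSC96 is an immortalised rat Schwann cell line. The other groups were co-cultured with monocyte-derived macrophages (MDM; these libraries are titled PBMC and their treatment is given as untreated, and only the source names the MDM), with tumour-associated macrophages (TAM) induced by BxPC-3 (BxTAM), or with TAM induced by MIA PaCa-2 (MiaTAM); both are human pancreatic cancer cell lines. No source used here gives the species of the macrophages or the length of co-culture, or says whether the 3 libraries of a group are separate cultures, so p-values measure the spread between these libraries, which may be technical.

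Mitochondria keep their own ribosome, the mitoribosome, which translates the few messenger RNAs transcribed from the mitochondrial chromosome, all of them for subunits of the oxidative phosphorylation complexes. Its ribosomal RNAs come from mitochondrial DNA, but every one of its proteins is encoded in the nucleus, made in the cytosol and imported. Some of these proteins have counterparts in bacterial ribosomes, and others exist only in mitochondrial ribosomes. In Schwann cells, mitochondrial respiration is known to matter for the support of axons and for myelin.

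Library totals ranged from 16555215 to 21506669 counts. The members' counts in 1 library ranged from 28 (Mrpl1) to 3726 (Mrpl45), so counting error limits the precision for Mrpl1 much more than for Mrpl45. CPM is the count as a rate over the library total, which is TMM-scaled except for the cell type markers of this paragraph. Schwann cell markers were checked over 14 genes: Pmp22 averaged 94.1 CPM in cells alone and Sox2 38.9, whereas Cdh19 was at 0 in every library and Sox10 and Mbp had 1 and 4 counts over all 12 libraries. Of 20 macrophage markers, 14 stayed under 1 CPM in every group and Tyrobp and Marco were at 0. The summed level of the 20 was 28.5 to 31.2 CPM in cells alone, 62.8 to 68.8 with MDM, 60.0 to 62.0 with BxTAM and 67.2 to 71.0 with MiaTAM, with Itgax at 17.3, 45.8, 37.6 and 41.4 CPM. The part of macrophage RNA in the results was not tested, and in such bulk samples fewer cells of a type and less RNA per cell cannot be told apart.

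The members were expressed at moderate and fairly even levels. On the per-length scale (FPKM, counts scaled by gene length and library total), the median member level over 12 libraries was 22.6, with quartiles of 13.9 and 33.0, beside a median of 11.5 for all genes tested. Within 2-fold of that median lay 46 of 70 members. The highest levels were those of Mrpl17 (108 FPKM), a protein at the rim of the exit tunnel through which new chains leave the ribosome, of Mrps18c (70.3 FPKM) and of Mrpl45 (67.5 FPKM). The lowest were those of Mrpl1 (2.06 FPKM), Mrps2 (3.52 FPKM) and Mrpl47 (3.92 FPKM). The highest and the lowest member thus differed by 52.2-fold on this scale. The low rank of Mrps2 depends on the length used for it, 6007 bases beside a median of 1168 for the members. Without scaling by length, its group means ran from 17.4 to 24.9 CPM. Those of Mrpl16 (1149 bases, 19.1 FPKM) lay within that range, at 21.5 to 22.8 CPM.

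Summed FPKM of the 43 large subunit members was 1.87 ± 0.0260 (SD, n = 3) times that of the 26 small subunit members in cells alone. The ratio was 1.87 ± 0.0146 with MDM, 1.93 ± 0.0225 with BxTAM and 1.97 ± 0.0462 with MiaTAM (SD, n = 3 each). The 2 products of Mrps18a and Mrps30 sit in the large subunit in spite of their symbols and were counted there. Mrps36 was counted in neither, because its product is now known as a component of the 2-oxoglutarate dehydrogenase complex rather than of the ribosome. On this scale the ratios of cells alone and of MDM co-cultures overlapped, and all those of BxTAM (from 1.90) and MiaTAM (from 1.92) lay above both. On summed CPM, which is not per length, the ratios of cells alone (1.66 to 1.69) lay below those of MDM (1.70 to 1.73) as well; the members as a whole took 0.229%, 0.209%, 0.205% and 0.216% of all counts in the 4 groups.

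A short feature that 8 members share stands at the start of transcription. Promoter sequences (RefSeq, build GRCr8, 250 bases before to 50 after the start) were matched by symbol for 55 of the 70 members. AAGATGGCG, the core recognised by the transcription factor YY1, was present on either strand in 8 of the 55 (14.5%), beside 3.74% of the promoters of genes tested and 1.73% of all 33469 promoters. In each of the 8 the match lay on the forward strand with its first base between bases 1 and 31 after the start, and the last of the 8 ended at base 39. The 30-base windows below, read 5′ to 3′ on the gene's strand, carry the match in capitals and are shown because the position is so similar among them. A match is a description of letters and not of a bound site.
Mrpl37 (chr5:127074942-127074971, minus strand): tgcccgggcaAAGATGGCGgcgtccaggta
Mrpl42 (chr7:32028484-32028513, minus strand): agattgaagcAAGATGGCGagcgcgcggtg
Mrpl46 (chr1:142116987-142117016, minus strand): ggaagacggaAAGATGGCGgcgcccatagg
Mrpl50 (chr5:68668042-68668071, minus strand): gagcttgtcgAAGATGGCGgcgctgtgtgt
Mrps10 (chr9:21122404-21122433, minus strand): tcagggcaccAAGATGGCGgcgcgcgcagc
Mrps18a (chr9:22367361-22367390, minus strand): gtgtgttcccAAGATGGCGgccctcagggc
Mrps27 (chr2:32474223-32474252, plus strand): ggtacgctccAAGATGGCGgcccccatggt
Mrps30 (chr2:52195867-52195896, minus strand): gcggaggacaAAGATGGCGgctgccaggta

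The other motifs searched stood nearer to their share among the genes tested. The core of the NRF-1 site, GCGCANGC, stood in 11 of 55 member promoters (20%), beside 19.4% of the promoters of genes tested and 8.98% of all. The ETS/GABP motif CCGGAAGT stood in 7 (12.7%), beside 8.19% and 3.81%, and the E-box CACGTG, which Myc can bind, in 4 (7.27%), beside 9.05% and 6.42%. Some NRF-1 core matches on the 2 strands overlap each other, because GCGCATGCGC reads the same on both. The 80 bases before the start of Mrpl17, the member with the highest level, and of Mrpl32 show such clusters, with the matches in capitals.
Mrpl17 (chr1:169575700-169575779, minus strand): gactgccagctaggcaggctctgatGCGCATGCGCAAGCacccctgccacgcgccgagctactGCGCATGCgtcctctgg
Mrpl32 (chr17:55260571-55260650, plus strand): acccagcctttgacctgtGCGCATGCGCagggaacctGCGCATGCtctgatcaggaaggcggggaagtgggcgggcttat

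Across the 4 groups, the members most often stood highest in cells alone. The group mean of cells alone was the highest of the 4 for 45 of 70 members (64.3%), beside 38.2% of all genes tested. The lowest mean was that of MDM co-cultures for 30 members (42.9%), beside 23.9% of all genes, and that of BxTAM co-cultures for 19 (27.1%), beside 15.3%. Cells alone had the lowest mean for 12 members (17.1%), beside 37.2% of all genes. The most frequent order of the means, MDM below BxTAM below MiaTAM below cells alone, held for 16 members.

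**Figure D1:**
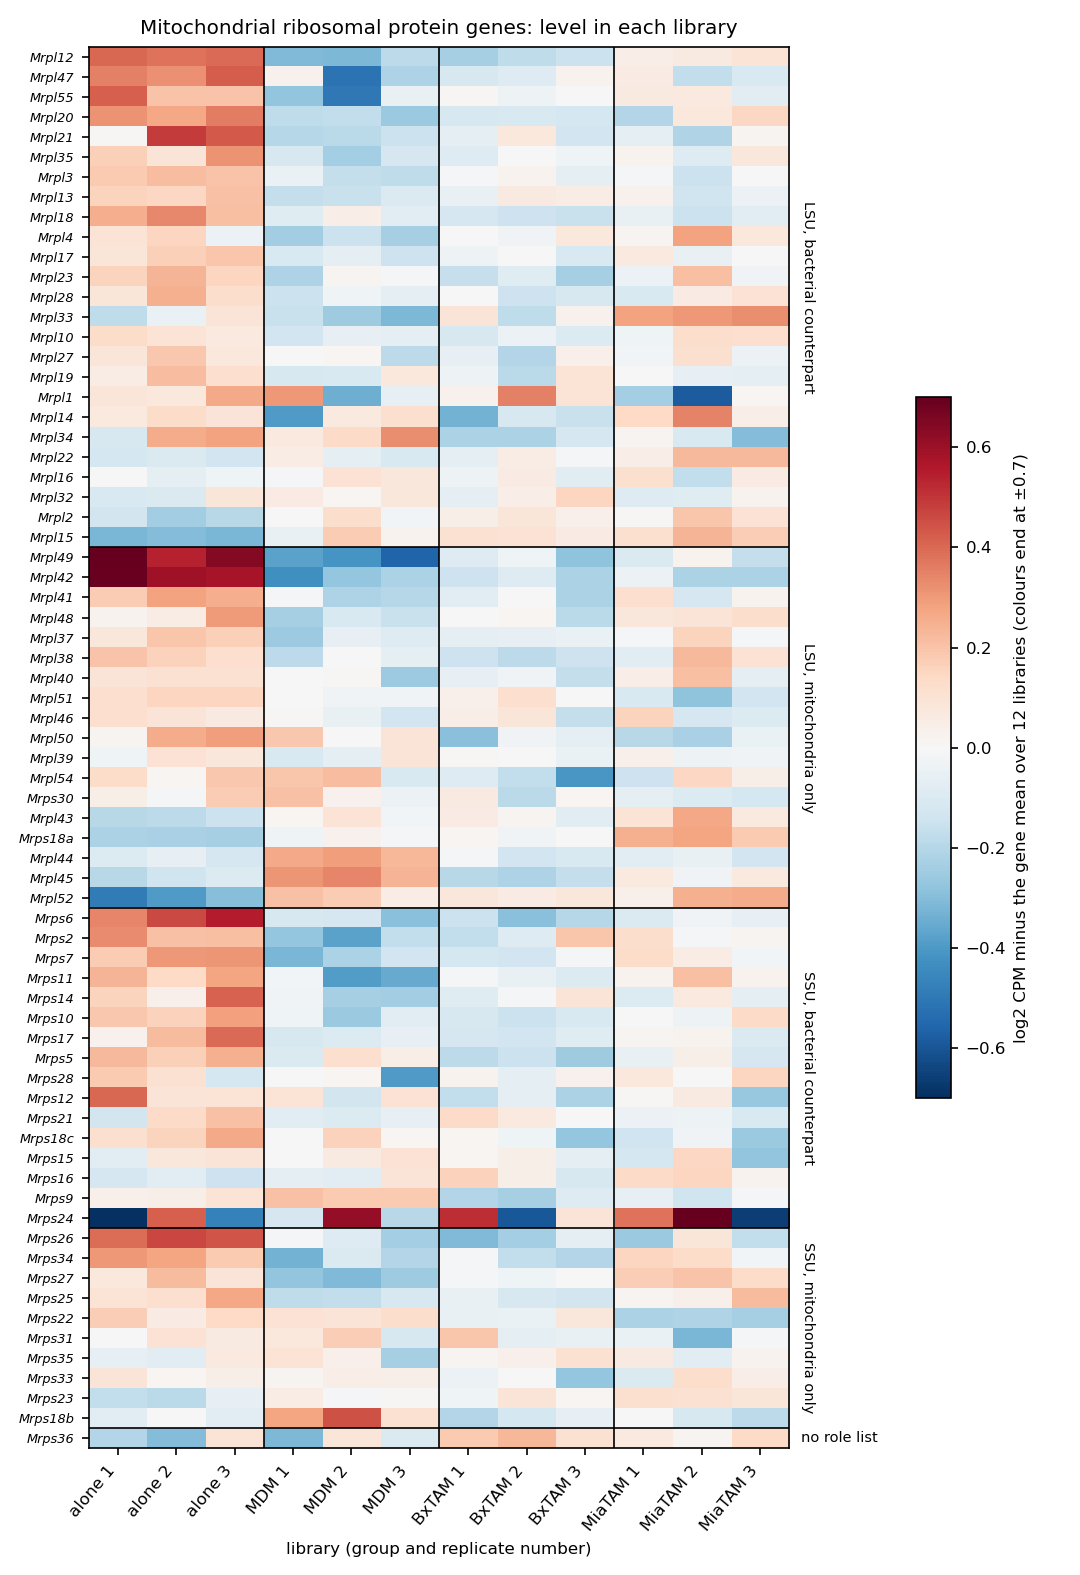
Level of each of the 70 members (rows, grouped by role and ordered by their change with MDM; LSU and SSU are the large and small subunit) in each of the 12 libraries (columns), as log2 CPM minus the gene's mean over the 12 libraries. Red is above the mean and blue below; the cells-alone columns are red for most rows, Mrpl52, Mrpl15 and Mrps18a show the opposite, and Mrps24 varies within every group.

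With MDM, 33 of the 70 members fell and 10 rose at an adjusted p under 0.05 (edgeR's quasi-likelihood test, Benjamini-Hochberg adjustment over all genes tested). That is 47.1% lower and 14.3% higher, beside 33.1% and 32.0% of all genes tested, so the lower calls were the more frequent and the higher calls the less frequent among the members. The median log2 change was -0.18 for the members and -0.01 for all genes. With BxTAM 39 members fell and 7 rose (55.7% and 10%), beside 30.9% and 30.0% of all genes, with a median of -0.19 against 0.00. With MiaTAM 28 fell and 10 rose (40% and 14.3%), beside 33.7% and 31.4%, with a median of -0.13 against -0.01. With upper-quartile scaling 16 fell and 11 rose with MiaTAM, which moved the higher share of called members from 26.3% to 40.7%. The 16 are 22.9% of the members, beside 27.9% of all genes lower at that scaling, and with DESeq2's Wald test 19 members (27.1%) were lower beside 29.8% of these genes. The members' larger share of lower calls with MiaTAM was thus turned round by both settings, while with MDM and BxTAM it stayed larger under both (42.9% beside 28.3% and 44.3% beside 26% at upper-quartile scaling, 47.1% beside 29.6% and 45.7% beside 27% with DESeq2). These 3 comparisons share the 3 libraries of cells alone, as the comparisons against MDM below share those of MDM.

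The changes were small. A called change past 2-fold was seen for 1 member with MDM, Mrpl49, and for 0 with BxTAM and MiaTAM, beside 8.46%, 7.56% and 8.93% of all genes. Called changes past 1.5-fold were seen for 4, 4 and 2 members with MDM, BxTAM and MiaTAM (5.71%, 5.71% and 2.86%), beside 22.5%, 19.1% and 22.2% of all genes. The median size of a member's log2 change with MDM was 0.24, beside 0.30 for all genes. All 33 members called lower with MDM, and all 10 called higher, had groups that did not overlap in CPM; with BxTAM that held for 37 of 39 and 7 of 7, and with MiaTAM for 25 of 28 and 10 of 10. Such separation was general among called genes: of all genes called lower it held for 96.6%, 97.1% and 95.6%, and of those called higher for 95.4%, 96.3% and 94%. As shares of all genes tested, these were 32.0%, 30.0% and 32.2% lower and 30.5%, 28.9% and 29.5% higher.

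**Figure D2:**
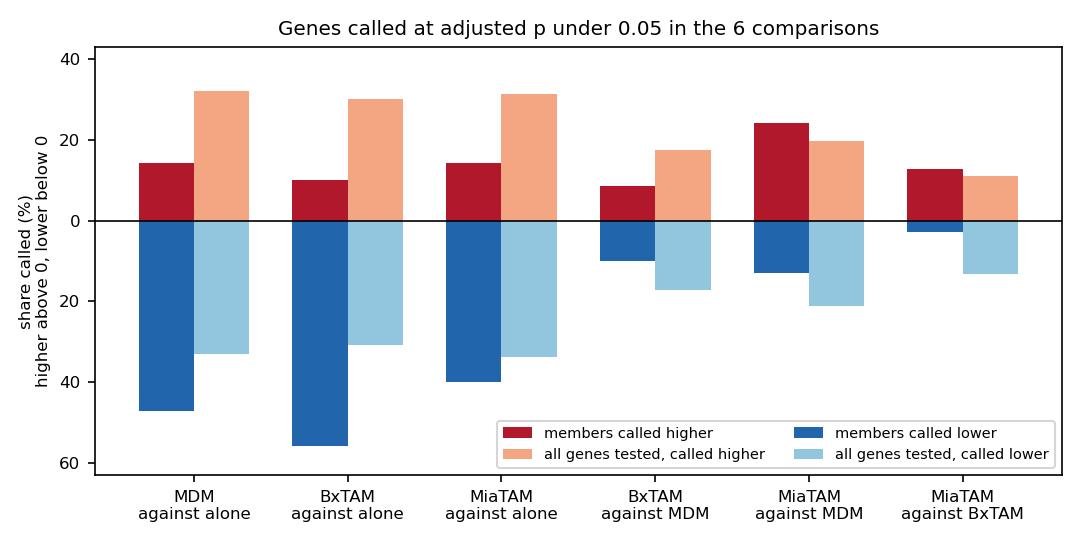
Share of the 70 members (dark bars) and of the 12360 genes tested (pale bars) called higher (above 0) or lower (below 0) in each of the 6 comparisons, in percent. The members' lower bar is longer than that of all genes in the 3 comparisons against cells alone, and their higher bar is longer in MiaTAM against MDM (24.3% beside 19.8%) and in MiaTAM against BxTAM (12.9% beside 11.0%).

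By role, lower calls made up 44% to 64% of the proteins with bacterial counterparts in each subunit and comparison. Of 25 such large subunit members, 14 fell and 2 rose with MDM, 16 fell and 2 rose with BxTAM, and 11 fell and 4 rose with MiaTAM. Of 16 such small subunit members, 8, 10 and 10 fell, and 1, 0 and 1 rose. Of 18 large subunit members found only in mitochondria, 7, 8 and 5 fell, and 5, 3 and 4 rose. Of 10 such small subunit members, 4, 5 and 2 fell, and 2, 1 and 1 rose. Beside the 33.1%, 30.9% and 33.7% of all genes called lower, the lower share of the mitochondria-specific members was 38.9%, 44.4% and 27.8% in the large subunit and 40%, 50% and 20% in the small subunit, so with MiaTAM both lay under that of all genes. The higher share lay under the 32.0%, 30.0% and 31.4% of all genes in every role group. It was 8%, 8% and 16% for large subunit members with bacterial counterparts, and 6.25%, 0% and 6.25% for the small subunit ones. For the mitochondria-specific members it was 27.8%, 16.7% and 22.2% in the large subunit and 20%, 10% and 10% in the small subunit. The difference between the role groups was not tested.

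The deepest falls were those of Mrpl49 and Mrpl42, large subunit proteins found only in mitochondria. Mrpl49 (ENSRNOG00000020975, chromosome 1, 221417336 to 221420115, build Rnor_6.0) stood at 26.3, 21.8 and 23.4 CPM in cells alone, 11.5, 11.2 and 10.2 with MDM, 14.1, 14.7 and 12.3 with BxTAM, and 14.0, 15.2 and 13.3 with MiaTAM. Every co-culture library was below every library of cells alone. The log2 change was -1.12 ± 0.09 (SE; adjusted p = 8.5e-10 by edgeR) with MDM, a 2.17-fold lower level, -0.80 ± 0.09 with BxTAM and -0.75 ± 0.09 with MiaTAM. Its gene overlaps Syvn1, on the opposite strand, by 551 bases, and Syvn1 rose by 0.54 with MDM; no source used here says whether the authors' counting used strand.

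Mrpl42 (ENSRNOG00000042740, chromosome 7, 36573654 to 36597462) stood at 48.1, 44.8 and 44.2 CPM in cells alone, 22.1, 24.6 and 25.5 with MDM, 26.9, 27.9 and 25.5 with BxTAM, and 28.8, 25.5 and 25.5 with MiaTAM. The 3 kinds of co-culture lay close together, well below cells alone. Its log2 changes were -0.92 ± 0.07 with MDM (adjusted p = 3.5e-10 by edgeR), -0.77 ± 0.07 with BxTAM and -0.78 ± 0.07 with MiaTAM, and none of the 3 comparisons among co-cultures passed the test. Mrpl42 carries 1 of the start-site windows printed above.

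Mrpl12 forms the flexible stalk of the large subunit to which translation factors are recruited. Its levels were 40.0, 39.4 and 39.8 CPM in cells alone, 24.4, 24.3 and 26.6 with MDM, 25.8, 26.7 and 27.3 with BxTAM, and 31.2, 31.6 and 32.4 with MiaTAM. MiaTAM co-cultures thus lay between cells alone and the other co-cultures without overlap. The log2 change was -0.66 ± 0.06 with MDM (adjusted p = 4.8e-09), -0.58 ± 0.06 with BxTAM and -0.32 ± 0.06 with MiaTAM, and MiaTAM was higher than MDM by 0.33 ± 0.06 and than BxTAM by 0.26 ± 0.06 (adjusted p = 0.00016 and 0.0045, all by edgeR). Mrpl10, the stalk base protein that anchors Mrpl12, fell by less: its change was -0.18 ± 0.05 with MDM, -0.18 ± 0.05 with BxTAM and -0.03 ± 0.05 with MiaTAM, the last not passing the test. The third member of this list, Mrpl54, fell with BxTAM only in these calls (-0.33 ± 0.10), with changes of -0.01 with MDM and -0.10 with MiaTAM; the call was lost without BxTAM 3.

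In the small subunit, Mrps6 and Mrps26 fell furthest with BxTAM. Mrps6, a protein with a bacterial counterpart, stood at 19.2, 20.8 and 22.1 CPM in cells alone, 14.0, 13.9 and 12.3 with MDM, 13.6, 12.3 and 13.1 with BxTAM, and 14.1, 14.8 and 14.5 with MiaTAM. Its log2 changes were -0.63 ± 0.08, -0.67 ± 0.08 and -0.52 ± 0.08 (adjusted p = 5.0e-07, 3.1e-07 and 7.1e-06 by edgeR). Mrps26, found only in mitochondria, changed by -0.54 ± 0.08, -0.63 ± 0.09 and -0.55 ± 0.09. For both genes the co-culture libraries lay below all those of cells alone, and no comparison among co-cultures passed the test.

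**Figure D3:**
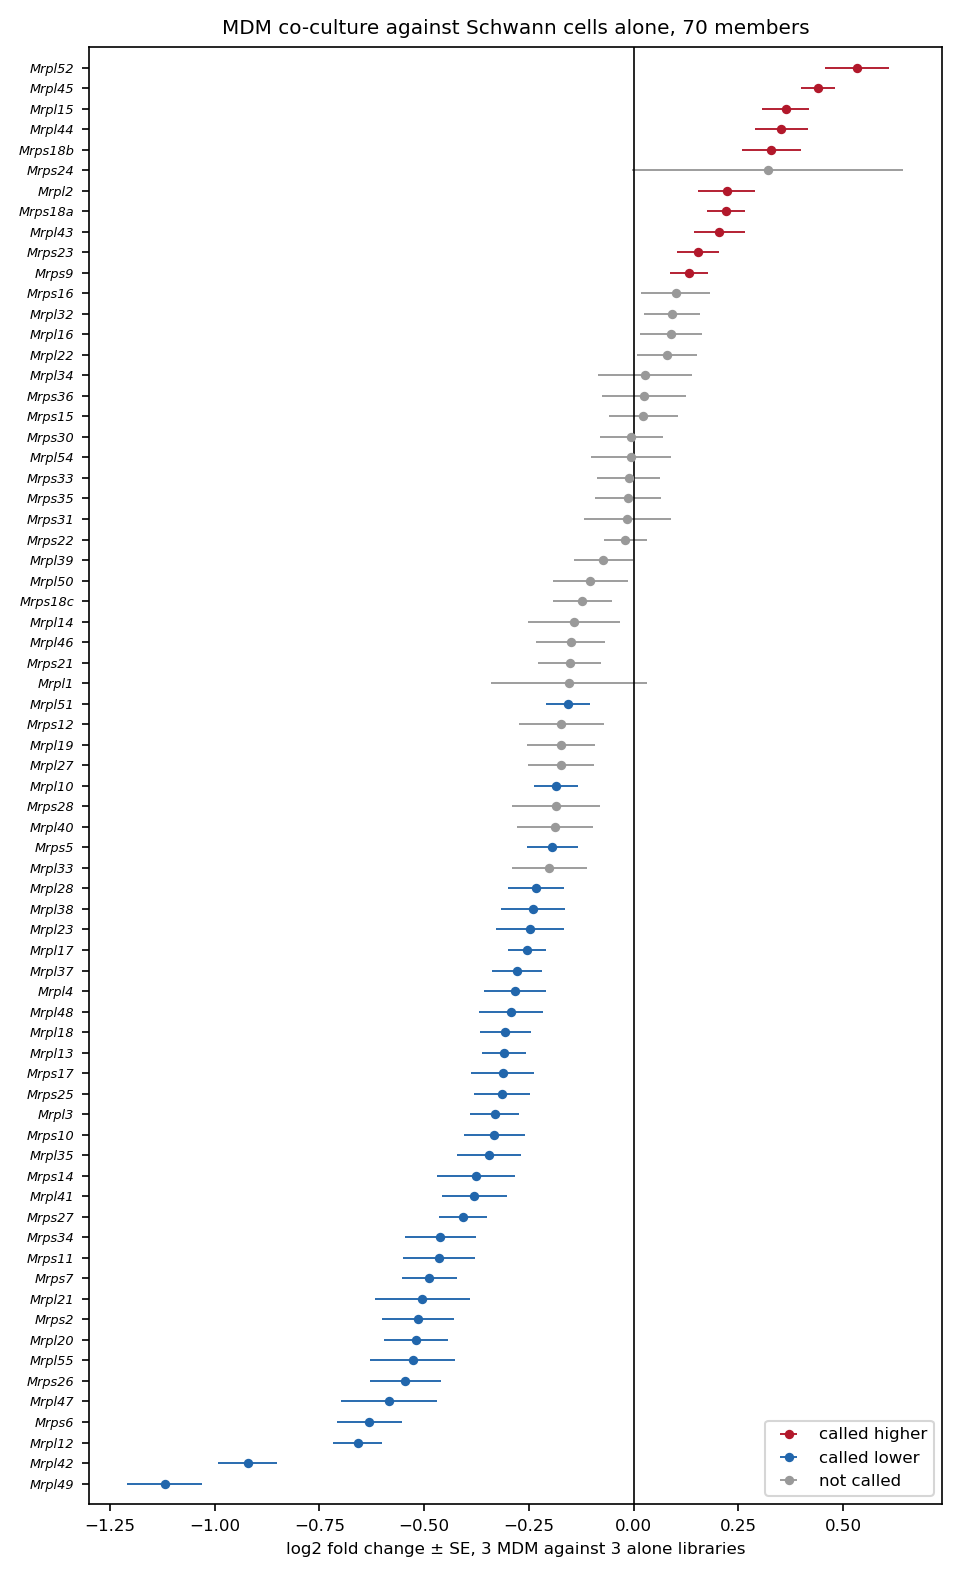
Log2 fold change of each of the 70 members (points, with the standard error as bars) in the 3 MDM co-culture libraries against the 3 libraries of cells alone. Blue points are the 33 members called lower, red the 10 called higher and grey the 27 not called; the axis runs from Mrpl49 (-1.12) to Mrpl52 (0.53), and Mrps24 has the widest error.

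A smaller set rose with every kind of co-culture. Mrpl52, in the central protuberance of the large subunit, stood at 16.9, 18.1 and 19.4 CPM in cells alone, 27.5, 26.9 and 24.6 with MDM, 25.2, 24.8 and 25.1 with BxTAM, and 24.4, 28.3 and 28.5 with MiaTAM. Its log2 changes were 0.53 ± 0.08, 0.46 ± 0.08 and 0.57 ± 0.08 (adjusted p = 3.4e-06, 2.6e-05 and 1.4e-06 by edgeR). The changes of the other 6 measured members of the protuberance were all below 0, but not all were called. With MDM, BxTAM and MiaTAM, 3, 4 and 1 of the 7 were called lower. These are 42.9%, 57.1% and 14.3%, beside 33.1%, 30.9% and 33.7% of all genes. Mrpl15, a core protein of the large subunit, stood at 46.5, 47.1 and 46.5 CPM in cells alone and between 55.9 and 68.5 CPM in the 9 co-cultures. Its changes were 0.36 ± 0.06, 0.40 ± 0.06 and 0.49 ± 0.06, and Mrpl2, which lies near the catalytic centre, changed by 0.22 ± 0.07, 0.24 ± 0.07 and 0.29 ± 0.07. Mrps36 rose with BxTAM (0.30 ± 0.10), a call that was lost without alone 2; its changes of 0.03 with MDM and 0.21 with MiaTAM did not pass the test.

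The 3 Mrps18 paralogues, related to 1 bacterial protein, moved in different ways. Mrps18a stood at 48.1, 47.9 and 47.8 CPM in cells alone, 55.0, 57.2 and 55.5 with MDM, 56.7, 55.2 and 55.9 with BxTAM, and 66.6, 68.0 and 63.7 with MiaTAM. It rose in all 3 co-cultures, most with MiaTAM (0.46 ± 0.05, adjusted p = 2.5e-08 by edgeR), where it was higher than with MDM and with BxTAM by 0.24 ± 0.05 each. Mrps18b stood at 51.1, 53.9 and 50.8 CPM in cells alone, 65, 73.3 and 57.9 with MDM, 46.7, 49.4 and 51.6 with BxTAM, and 53.9, 49.8 and 47.3 with MiaTAM. It rose with MDM only in these calls (0.33 ± 0.07, adjusted p = 0.00038) and was lower with BxTAM than with MDM by 0.41 on the log2 scale (adjusted p = 0.00015, both by edgeR). Mrps18c, at 61.2, 63.0 and 68.0 CPM in cells alone, fell with BxTAM (-0.27 ± 0.07) and MiaTAM (-0.32 ± 0.07), with -0.12 ± 0.07 with MDM not passing the test.

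**Figure D4:**
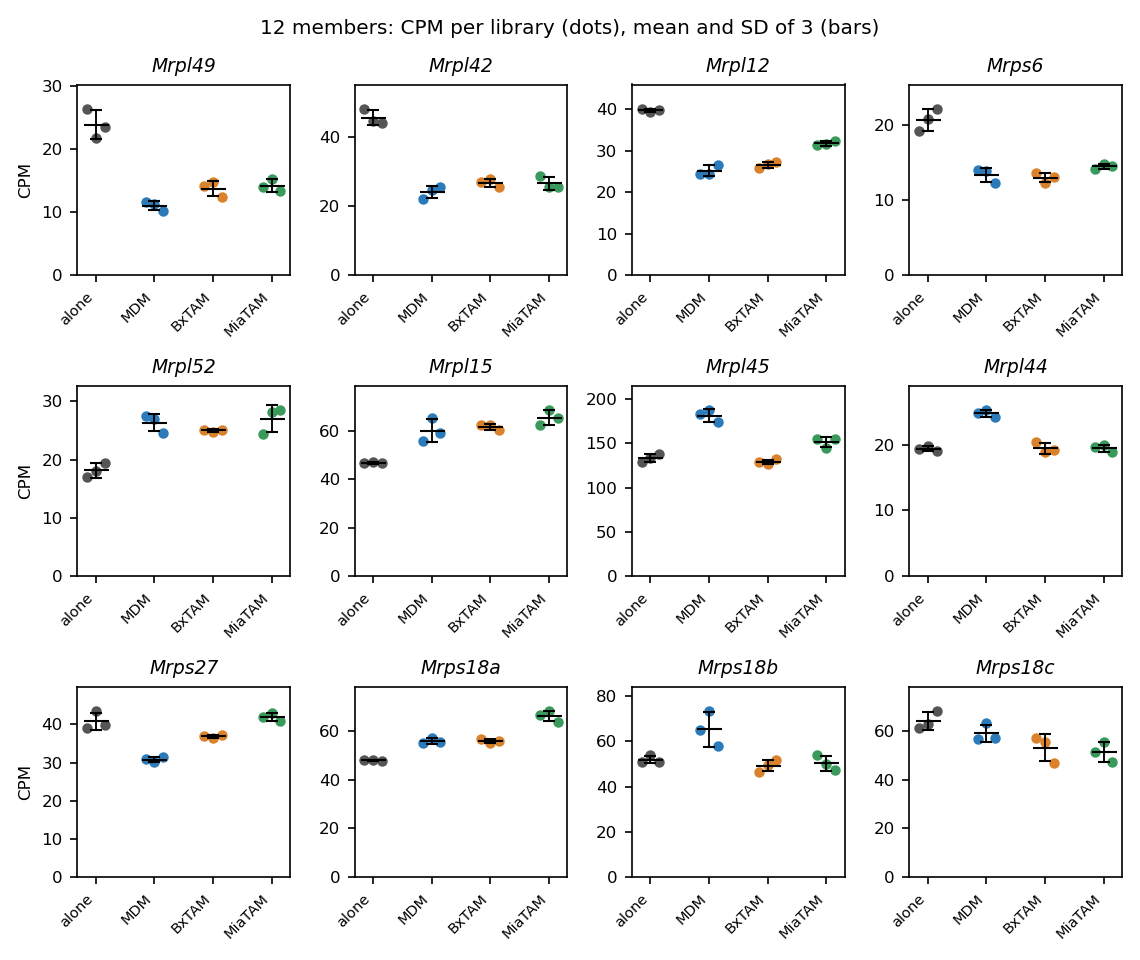
CPM of 12 members in every library (dots, coloured by group), with the mean and SD of the 3 libraries of a group (black bars); each axis starts at 0. The upper 4 members are lowest in co-culture, Mrpl52 and Mrpl15 are highest there, Mrpl45, Mrpl44 and Mrps18b are highest with MDM, and Mrps27 is lowest with MDM.

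Some members set MDM apart from both TAM co-cultures. BxTAM co-cultures were higher than MDM for 6 members and lower for 7 (8.57% and 10%), beside 17.4% and 17.3% of all genes, so the members held fewer calls than the background in both directions. Without MDM 1 or without BxTAM 3 the higher calls were 3. Mrpl45, which holds the ribosome to the inner membrane beside the exit tunnel, stood at 129, 134 and 138 CPM in cells alone, 183, 187 and 174 with MDM, 129, 127 and 132 with BxTAM, and 155, 145 and 155 with MiaTAM. The MDM libraries were the highest of all 12; the changes were 0.44 ± 0.04 for MDM against alone (adjusted p = 1.1e-08), -0.49 ± 0.04 for BxTAM against MDM (adjusted p = 1.6e-08) and -0.26 ± 0.04 for MiaTAM against MDM (adjusted p = 5.1e-05, all by edgeR).

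Mrpl44, also at the exit tunnel, gave 19.3, 19.8 and 19.0 CPM in cells alone, 24.8, 25.2 and 24.2 with MDM, 20.4, 18.8 and 19.1 with BxTAM, and 19.6, 19.9 and 18.8 with MiaTAM. Only the MDM libraries stood apart for this gene, by 0.35 ± 0.06 against cells alone and by -0.35 ± 0.06 for each TAM against MDM. Mrps9, a protein of the small subunit head, was called higher with MDM (0.13 ± 0.05) and lower with BxTAM (-0.23 ± 0.05) and MiaTAM (-0.12 ± 0.05) against cells alone, the MiaTAM call being lost without alone 1, alone 2, alone 3 or MiaTAM 2. Mrpl34 was lower with both TAM than with MDM (-0.37 ± 0.12 and -0.31 ± 0.12), at 7.05 to 10.9 CPM. Its call against MDM was lost for BxTAM without MDM 3, BxTAM 1 or BxTAM 2, and for MiaTAM without MDM 2, MDM 3, MiaTAM 2 or MiaTAM 3.

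In all, 8 members had their highest mean with MDM, and 7 of them have a promoter sequence. The NRF-1 core stood in 5 of these 7 (Mrpl32, Mrpl34, Mrpl44, Mrpl45 and Mrps18b), beside 19.4% of the promoters of all genes tested whose highest mean was with MDM. These members were picked by their values, and Mrpl32 was called in none of the 6 comparisons, so the count is a description. Mrps9, also highest and called higher with MDM, has no match. By calls with MDM against cells alone, the core stood in 3 of 8 promoters of members called higher. It stood in 3 of 28 of those called lower and in 5 of 19 of those not called. The 250 bases before the start are printed for the 3 of the 5 that were called higher with MDM. NRF-1 core matches on either strand are in capitals (and, in Mrps18b, also an E-box).
Mrpl44 (chr9:88554800-88555049, plus strand): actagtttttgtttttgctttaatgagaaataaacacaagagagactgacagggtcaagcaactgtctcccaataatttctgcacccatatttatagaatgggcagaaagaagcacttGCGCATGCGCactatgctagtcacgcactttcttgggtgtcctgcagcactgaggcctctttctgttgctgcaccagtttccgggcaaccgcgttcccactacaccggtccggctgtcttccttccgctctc
Mrpl45 (chr10:82804789-82805038, plus strand): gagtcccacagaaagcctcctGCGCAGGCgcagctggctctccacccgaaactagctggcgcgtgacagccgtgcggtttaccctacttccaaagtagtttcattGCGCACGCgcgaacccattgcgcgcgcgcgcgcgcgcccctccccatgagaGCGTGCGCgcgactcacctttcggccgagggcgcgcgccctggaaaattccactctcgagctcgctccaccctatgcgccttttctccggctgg
Mrps18b (chr20:2842756-2843005, plus strand): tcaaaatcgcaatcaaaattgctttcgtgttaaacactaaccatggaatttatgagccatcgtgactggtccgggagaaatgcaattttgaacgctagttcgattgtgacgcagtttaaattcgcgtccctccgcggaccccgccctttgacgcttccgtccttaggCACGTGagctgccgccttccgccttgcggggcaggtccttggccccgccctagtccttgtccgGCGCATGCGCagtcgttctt

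MiaTAM co-cultures were higher than MDM for 17 members and lower for 9 (24.3% and 12.9%), beside 19.8% and 21.1% of all genes, with a median change of 0.11 against -0.01. Mrpl33, a small large-subunit protein, stood at 12.1, 13.3 and 14.5 CPM in cells alone, 12.3, 11.5 and 11.0 with MDM, 14.5, 12.1 and 14.0 with BxTAM, and 16.6, 16.9 and 17.1 with MiaTAM. It was highest in the 3 MiaTAM libraries, by 0.54 ± 0.09 against MDM (adjusted p = 4.7e-05 by edgeR) and 0.34 ± 0.09 against cells alone. Mrps27, an RNA-binding small subunit protein, stood at 39.2, 43.4 and 39.7 CPM in cells alone, 30.8, 30.0 and 31.4 with MDM, 36.9, 36.5 and 37.1 with BxTAM, and 42.0, 42.9 and 40.8 with MiaTAM. It was lowest with MDM without overlap, and the MiaTAM level exceeded MDM by 0.45 ± 0.06 (adjusted p = 4.2e-06 by edgeR).

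Further rises of MiaTAM over MDM were those of Mrpl49 (0.37 ± 0.10) and Mrpl4 (0.34 ± 0.07). Against MDM, BxTAM co-cultures were higher for Mrpl49 (0.32 ± 0.10), Mrps36 (0.28 ± 0.10), Mrps27 (0.26 ± 0.06) and Mrps2 (0.25 ± 0.09). Among these, the Mrpl49 call was lost without MDM 3 or BxTAM 2, the Mrps2 call without MDM 1, MDM 2 or BxTAM 3, and the Mrps36 call without MDM 1, MDM 3, BxTAM 1 or BxTAM 2. Mrps22 went the other way, at 55.8, 51.4 and 54.6 CPM in cells alone, 53.0, 52.6 and 53.9 with MDM, 47.7, 47.9 and 52.2 with BxTAM, and 42.5, 42.7 and 42.2 with MiaTAM. It was lowest in the MiaTAM libraries, by -0.34 ± 0.05 against cells alone, -0.32 ± 0.05 against MDM and -0.21 ± 0.05 against BxTAM, the last lost without BxTAM 3.

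The 2 kinds of TAM co-culture differed for few members. MiaTAM was higher than BxTAM for 9 members and lower for 2 (12.9% and 2.86%), beside 11.0% and 13.3% of all genes, with a median of 0.08 against 0.00. The higher calls were 4 without BxTAM 1, 4 without BxTAM 2 and 5 without MiaTAM 2, and the lower calls 1 without BxTAM 3. The rises of Mrpl14 (0.38 ± 0.11) and Mrpl33 (0.32 ± 0.09) were the widest, followed by Mrpl12 and Mrpl38 (0.24 ± 0.08). Of these, Mrpl14 lost its call without BxTAM 1 or MiaTAM 2, Mrpl33 without BxTAM 2, and Mrpl38 without any 1 of BxTAM 1, 2 or 3, MiaTAM 2 or MiaTAM 3. The 2 lower members were Mrps22 and Mrpl51 (-0.22 ± 0.05).

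Called in none of the 6 comparisons were 15 members: Mrpl1, Mrpl16, Mrpl19, Mrpl32, Mrpl39, Mrpl40, Mrpl46, Mrps15, Mrps21, Mrps24, Mrps28, Mrps30, Mrps31, Mrps33 and Mrps35. The same count was not made over all genes tested, so the 15 cannot be read as many or few. The smallest ranges of the 4 group means were those of Mrpl16, Mrpl39 and Mrps35, whose changes lay between -0.08 and 0.09 in the 6 comparisons. Mrps12, in the decoding centre of the small subunit, was lower with BxTAM (-0.35 ± 0.10) and MiaTAM (-0.26 ± 0.10), both calls being lost without alone 1 and the MiaTAM call also without MiaTAM 3, and its MDM change of -0.17 ± 0.10 did not pass the test. Mrpl46 and Mrps11 lie head to head on opposite strands, 71 bases apart. Mrps11 fell with MDM (-0.46 ± 0.09, adjusted p = 8.0e-05 by edgeR), while Mrpl46 changed by -0.15 ± 0.08 without passing the test.

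Among 5 tested subunits with other symbols, Ptcd3 changed more with MDM than any member. Ptcd3, an RNA-binding protein at the messenger entrance of the small subunit, averaged 82.4 ± 2.05 CPM in cells alone, 34.4 ± 1.59 with MDM, 45.9 ± 2.24 with BxTAM and 44.2 ± 4.41 with MiaTAM (SD, n = 3 each). Its log2 changes were -1.26 ± 0.06, -0.84 ± 0.06 and -0.90 ± 0.06. Dap3, a GTP-binding small subunit protein, fell with MDM (-0.30 ± 0.05) and BxTAM (-0.24 ± 0.05). The other 3 (Chchd1, Gadd45gip1 and Ict1) were called in none of the 3 comparisons against cells alone.

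Factors that work with the ribosome are set here beside all genes tested, of which 33.1%, 30.9% and 33.7% were called lower and 32.0%, 30.0% and 31.4% higher in the comparisons of MDM, BxTAM and MiaTAM with cells alone. Of 15 mitochondrial translation factors, 10, 10 and 11 fell (66.7%, 66.7% and 73.3%) and 1 rose in each of the 3 comparisons. The elongation factor Tsfm changed by -0.77 with MDM, -0.86 with BxTAM and -0.61 with MiaTAM, whereas its partner Tufm changed by 0.01, -0.06 and 0.06 without passing the test. The 1 that rose was Oxa1l, the insertase that receives new chains at the inner membrane, at 0.70, 0.58 and 0.60. Of 22 rows for the enzymes that charge mitochondrial transfer RNAs, 12, 13 and 12 fell (54.5%, 59.1% and 54.5%) and 4, 2 and 2 rose.

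Of 22 assembly and RNA modification genes tested, 6, 5 and 6 fell (27.3%, 22.7% and 27.3%) and 2, 3 and 4 rose, so both directions were called less often than over all genes. Mterfd1 (Mterf3), a regulator of mitochondrial transcription and of ribosome assembly, changed by -1.14, -0.71 and -0.68, and Gtpbp10, a GTPase of large subunit assembly, by -0.79, -0.80 and -0.99. Mettl17, needed for small subunit assembly, rose by 0.56, 0.43 and 0.51. Mpv17l2 rose with MiaTAM (0.71), with changes of 0.21 and 0.25 in the others that did not pass the test.

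Of 14 genes for mitochondrial DNA and its transcription, 11, 8 and 7 fell (78.6%, 57.1% and 50%) and 0 rose in these edgeR calls against cells alone. Tfam, which packages mitochondrial DNA and starts its transcription, changed by -0.23, -0.29 and -0.29, and Lrpprc, which stabilises mitochondrial messenger RNAs, by -0.50, -0.32 and -0.34. Polrmt, the mitochondrial RNA polymerase, fell with BxTAM (-0.26), with -0.14 and -0.06 in the others not passing the test; the call was lost without alone 2.

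Among 10 regulators of mitochondrial biogenesis, 4, 5 and 4 fell (40%, 50% and 40%) and 2 rose in each comparison against cells alone. Myc fell with MDM (-0.63) and BxTAM (-0.17), its change of -0.12 with MiaTAM not passing the test, and was higher with BxTAM and MiaTAM than with MDM by 0.45 and 0.51. Nrf1, the factor whose core motif was searched above, changed by -0.36, -0.59 and -0.53, and Gabpa by -0.47, -0.35 and -0.69. The coactivator Ppargc1a rose by 1.53, 1.31 and 1.35 from a low level of 2.09 CPM, and the nuclear receptor Esrra by 0.29, 0.38 and 0.53. Yy1 itself fell with BxTAM (-0.19) and MiaTAM (-0.31), with -0.11 with MDM not passing the test. The BxTAM call was lost for Myc without alone 2, alone 3, BxTAM 2 or BxTAM 3, and for Yy1 without alone 2, BxTAM 2 or BxTAM 3.

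The products and the cytosolic counterpart of the mitoribosome gave different counts. Of 13 coding genes of the mitochondrial chromosome, 11, 9 and 9 fell (84.6%, 69.2% and 69.2%) and 2 rose in each comparison; the 2 were Mt-co1 (0.48, 0.48 and 0.70) and Mt-cox3 (0.27, 0.31 and 0.38). Mt-co1 by itself averaged 19934 CPM in cells alone, and the 13 genes together took 5.16%, 5.08%, 5.39% and 6.01% of all counts in cells alone, MDM, BxTAM and MiaTAM, so their sum did not follow the count of genes called lower. Mt-nd6, a subunit of complex I, changed by -1.15, -1.59 and -1.36. Mt-atp6 changed by -1.59, -1.50 and -1.50, but without alone 1 by -0.43, -0.33 and -0.33. MiaTAM was higher than MDM for 9 of the 13 and lower for 1 (69.2% and 7.69%), beside 19.8% and 21.1% of all genes. Of 81 cytosolic ribosomal protein genes tested, 51, 26 and 37 rose (63%, 32.1% and 45.7%) and 5, 6 and 10 fell, with medians of 0.23, 0.07 and 0.16. Of 76 nuclear genes for oxidative phosphorylation subunits tested, 25, 15 and 36 rose (32.9%, 19.7% and 47.4%) and 15, 20 and 9 fell (19.7%, 26.3% and 11.8%). The rises of the cytosolic proteins with BxTAM and of the oxidative phosphorylation genes with MDM were thus about as frequent as over all genes. MiaTAM was higher than BxTAM for 30 of those 76 and lower for 0 by edgeR (39.5% and 0%), beside 11.0% and 13.3% of all genes. It was higher than MDM for 23 and lower for 4 (30.3% and 5.26%), beside 19.8% and 21.1%.

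**Figure D5:**
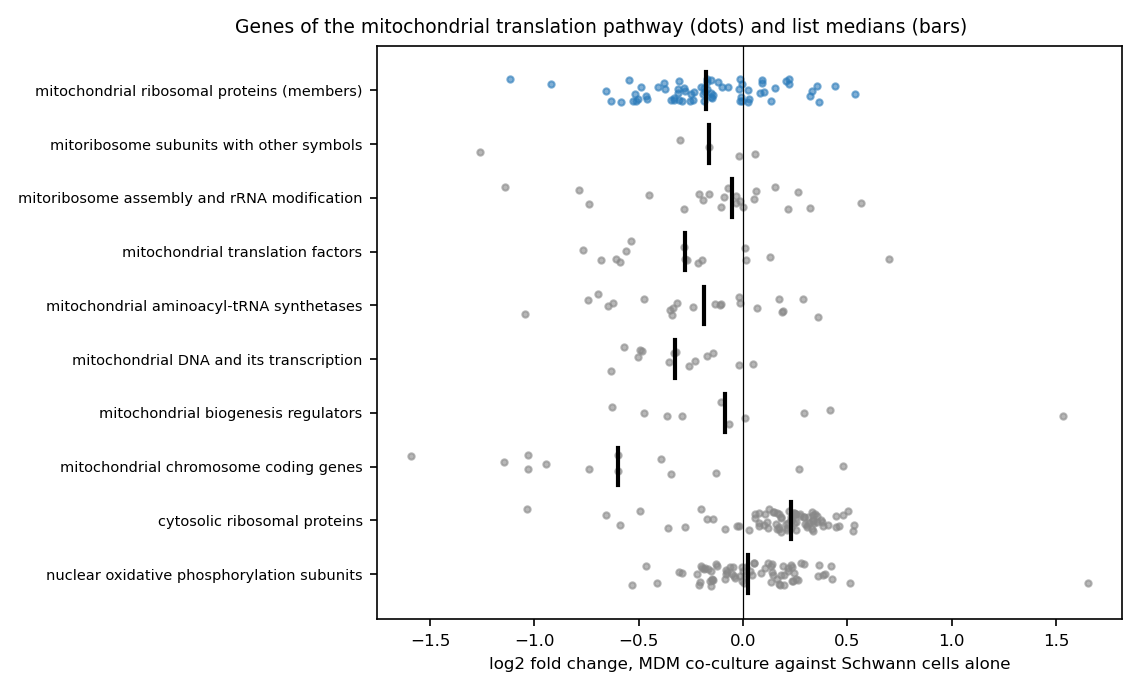
Log2 fold change with MDM against cells alone for each tested gene (dots, spread vertically for legibility) of the members and of 9 lists. The list median is a black bar. The lists are those of the mitochondrial translation pathway, the cytosolic ribosomal proteins and the nuclear oxidative phosphorylation subunits. The bar of the members lies at -0.18, those of the mitochondrial chromosome genes and of the cytosolic ribosomal proteins at -0.60 and 0.23.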

How the data were processed

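Messenger RNA was sequenced in 12 libraries of rat Schwann cells, grouped by their labels into 4 groups of 3. Per the labels' protocols, a stranded mRNA kit was used. CASAVA, HISAT2, StringTie 1.3.0 and the build Rnor_6.0 were used, per the submitters' processing notes; no source used here gives the counting tool, annotation release or strand setting. The authors deposited raw counts and FPKM for each gene, per the file headers, the FPKM being scaled by length and library total; the gene length implied by both varied by at most 0.0945% within a gene. The design text names 1 more kind of TAM, not analysed here.

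Counts of all genes were fitted in edgeR 4.0.16 (R 4.3.3) with filterByExpr by group (12360 of 30957 genes kept), TMM scaling (factors 0.98 to 1.01) and 1 quasi-likelihood model over all 12 libraries, without a block. Calls use a Benjamini-Hochberg adjusted p under 0.05 over all genes tested; the standard error is the log2 change over the square root of F. CPM are TMM-scaled, except those of the cell type markers, and log2 changes come from the fit. The code was tested on simulated data, and no library was found deposited more than once. Levels were compared between genes on the FPKM scale, except that the subunit ratio was also given on summed CPM, which is not per length. Promoters came from RefSeq (GRCr8), and both strands were searched.

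The members and the gene lists were chosen with earlier results of these data known. Members were named where they had the 4 largest called rises or falls of a comparison, the 3 smallest ranges of group means or the 3 highest or lowest FPKM, besides Mrpl12, Mrpl10, Mrps12, Mrpl45, the Mrps18 paralogues, Myc, Tfam, Polrmt and Tufm; Mrpl54, Mrpl2, Mrps11, Mrpl46, Mrpl32, Chchd1, Gadd45gip1, Ict1, Yy1 and the promoter members were added after their values were seen, as were the pathway genes named besides these. Alternatives were DESeq2 1.42.0 size factors and Wald test, upper-quartile scaling, no count filter, a fit on 2 groups alone, limma-trend (limma 3.58.1) on log2(FPKM + 1) and log2(FPKM + 0.1), a replicate block and leaving out each library.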

Additional observations from a re-analysis of the deposited data

How the results depend on the processing

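Of the genes named here with a log2 change, all but Mrpl13, Mrps7, Mtbp, Actl6a, Gga3 and Rsph9 were run under the alternative settings. No called log2 change of the genes run reversed under any setting. Leaving out 1 library kept the call, and its direction where called, in 2491 of 2664 results for these genes, with 135 calls lost and 38 gained; under the other settings 3454 of 3552 were kept, with 63 lost and 35 gained. Among them, Mrps12 and Mrps9 with MiaTAM lost their calls with upper-quartile scaling, with only the 2 groups in the fit and with DESeq2, and Myc and Yy1 with BxTAM with upper-quartile scaling. The pathway genes counted below leave out the cytosolic ribosomal proteins and the nuclear oxidative phosphorylation subunits. With upper-quartile scaling the members lower with MiaTAM against cells alone were 16 in place of 28. At that scaling the pathway genes higher with MDM against cells alone were 17, and those higher in MiaTAM against BxTAM 17. With DESeq2's Wald test the pathway genes lower in BxTAM against MDM were 5 and in MiaTAM against MDM 7; with only the 2 groups in the fit the latter were 9. With limma-trend on FPKM at either pseudocount, the pathway genes higher in MiaTAM against BxTAM were 7. On summed CPM the ratio of large to small subunit members was 1.68, 1.72, 1.75 and 1.79 in cells alone, MDM, BxTAM and MiaTAM. The cause of these shifts was not tested.

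Leaving out each library in turn gave 32 to 35 members lower with MDM against cells alone, beside 33 in the main fit. With BxTAM these were 32 to 38 beside 39, and with MiaTAM 19 to 25 beside 28. The members higher against cells alone were 10, 6 to 8 and 9 to 11. MiaTAM against MDM gave 12 to 18 members higher and 6 to 8 lower, beside 17 and 9. There were 3 to 5 members higher and 5 to 7 lower in BxTAM against MDM, beside 6 and 7. In MiaTAM against BxTAM 4 to 13 were higher and 1 to 2 lower, beside 9 and 2. The pathway genes gave 5 to 7 lower in BxTAM against MDM, 8 to 13 lower in MiaTAM against MDM, and 3 to 15 higher and 3 to 9 lower in MiaTAM against BxTAM. Same-numbered libraries did not deviate together (correlations from -0.127 to 0.0892), so no sign of pairing by number was seen. With 3 libraries per group, such values cannot exclude it. With the replicate block the members higher and lower were 10 and 33 with MDM, 7 and 37 with BxTAM and 10 and 29 with MiaTAM against cells alone, and 6 and 7, 17 and 9, and 9 and 2 among the co-cultures.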

Other observations

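Mrps24 had the widest spread within groups of any member, at 6.08, 14.4 and 7.77 CPM in cells alone, 9.92, 16.5 and 9.43 with MDM, 15.4, 7.13 and 11.5 with BxTAM, and 14.0, 19.3 and 6.83 with MiaTAM; no comparison passed the test.

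The 6 rows that match the symbol pattern without being members were Mrpl30 and both rows of Mrpl53 with 0 counts, Mrpl36 in 2 rows with 0 and 1 counts, and a second row of Mrps36 on chromosome 9 with 17 counts in 9 libraries. Mrpl9, Mrpl11 and Mrpl24 are not analysed here. Besides Mrpl49, 5 members overlap a neighbour with counts over 10% of their own, where reads could be split or shared. They are Mrpl13 with Mtbp, Mrpl21 with Ighmbp2, Mrpl43 with Peo1, Mrpl47 with Actl6a and Mrps7 with Gga3. Mrps18a overlaps Rsph9, on the opposite strand, by 6709 bases, with 569 counts for Rsph9 beside 12446 for Mrps18a. Rsph9 rose by 0.80 with MDM, 0.62 with BxTAM and 0.68 with MiaTAM. Mrps2 and Mrps28 overlap rows with 11 and 1 counts. Mtbp (-0.57) and Actl6a (-0.45) fell with MDM as did Mrpl13 (-0.31) and Mrpl47 (-0.58), while Gga3 rose (0.25) where Mrps7 fell (-0.49).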
